A study of Mus musculus with 6 samples.

Results

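The type 2 cytokine locus of the mouse comprises Il4, Il13 and Il5 together with their immediate neighbours Rad50 and Kif3a on chromosome 11. These 5 genes were taken by symbol from tables that list 23183 genes, and all 5 were present and passed the filter on low values. RNA was sequenced from wild-type (WT) primary group 2 innate lymphoid cells (ILC2) of the lung. The cells were kept for 24 h with interleukin 2 (IL-2), IL-7 and IL-33 at 10 ng/ml and either an IgG2b isotype control antibody (3 libraries) or DTA-1, an agonist antibody to GITR (3 libraries). Both groups thus received the activating cytokines, and no library of resting cells was analysed here. The labels do not give the strain, age or sex of the mice, nor whether the libraries came from separate animals. The p-values therefore rest on the spread between libraries alone, part of which may be technical.

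ILC2 are lymphocytes without antigen receptors that answer epithelial alarm cytokines such as IL-33 with type 2 cytokines. IL-5 drives the growth and survival of eosinophils. IL-13 acts on epithelium and smooth muscle, where it raises mucus production and contractility, and IL-4 directs T helper 2 cells and the antibody switch to IgE. Il4 and Il13 are related genes that share receptor chains. Rad50, which lies between Il13 and Il5, encodes a DNA break repair protein used by nearly all cells, and its 3' end holds the locus control region of the type 2 cytokine genes. Kif3a encodes a subunit of the transport motor kinesin-2.

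In the GENCODE annotation of GRCm38, the assembly of mm10, Kif3a occupies positions 53567379 to 53601967 of chromosome 11 on the plus strand. Il4 follows at 53602982 to 53618669 and Il13 at 53631324 to 53634702, both on the minus strand. Rad50 spans 53649519 to 53707319 on the minus strand, and Il5 lies at 53720794 to 53725106 on the plus strand. The gaps between neighbouring genes are 1.01 kb (Kif3a to Il4), 12.7 kb (Il4 to Il13), 14.8 kb (Il13 to Rad50) and 13.5 kb (Rad50 to Il5). Kif3a and Il4 meet tail to tail, and their models do not overlap within GENCODE or within RefSeq. In RefSeq, Kif3a ends at 53604248 and Il4 begins at 53612460. Only across the annotations does the RefSeq model of Kif3a run 1267 bases into the GENCODE model of Il4. The annotation and the use of strand in the authors' counting are unknown here. Whether reads from this stretch were assigned to Kif3a or to Il4 was not tested. Each gene has 1 value in a table, and isoforms were not separated.

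The promoters of the 3 cytokine genes are printed because these genes share a locus, and Il13 and Il5 stood far above Il4 in level. Each line holds the 250 bases before the RefSeq start on the gene's own strand (GRCm38.p6), with matches to the GATA motif in capitals. Il4 covers chr11:53618666-53618915 (minus strand) and has a further start in the table. Il13 covers chr11:53634703-53634952 (minus strand), and Il5 covers chr11:53720544-53720793 (plus strand).
Il4: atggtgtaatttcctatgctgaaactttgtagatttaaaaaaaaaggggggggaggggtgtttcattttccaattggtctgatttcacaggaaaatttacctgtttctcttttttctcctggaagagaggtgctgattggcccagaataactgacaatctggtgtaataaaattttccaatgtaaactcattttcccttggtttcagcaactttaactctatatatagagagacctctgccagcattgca
Il13: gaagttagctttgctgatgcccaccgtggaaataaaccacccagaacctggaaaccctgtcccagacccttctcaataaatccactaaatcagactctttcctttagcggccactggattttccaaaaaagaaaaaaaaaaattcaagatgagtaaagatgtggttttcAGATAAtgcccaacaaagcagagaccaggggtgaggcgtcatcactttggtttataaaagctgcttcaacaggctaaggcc
Il5: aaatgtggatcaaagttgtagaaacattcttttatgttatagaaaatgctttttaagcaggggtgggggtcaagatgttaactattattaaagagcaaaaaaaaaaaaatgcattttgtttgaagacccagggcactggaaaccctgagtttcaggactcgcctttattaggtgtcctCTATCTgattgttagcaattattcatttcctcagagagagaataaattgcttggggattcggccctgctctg

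The GATA motif, bound by the type 2 lineage factor GATA3, was searched on both strands as AGATAA, with AGATAG as a variant, then TGATAA as another and lastly as TGATAG. Il13 held 1 match on its own strand, 81 to 76 bases before the start. Il5 held 1 match on the opposite strand, 72 to 67 bases before the start. No match was found in the windows of Il4 and Kif3a, while 26.5% of all 32851 promoter windows held at least 1. The core letters of the NFAT motif, GGAAA, were found on either strand at 5 places in Il4, 4 in Il13, 2 in Il5 and 1 in Kif3a, against 55.6% of all windows with at least 1. These matches did not overlap the GATA matches. The letters of the AP-1 motif (TGACTCA or its reverse complement) were in none of these 4 windows and in 4.46% of all windows. Such matches describe the letters in these windows and nothing about binding.

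The 6 libraries were alike in depth, with estimated totals of 18700000 to 20700000 fragments and 14586 to 14939 genes above 0. Values are FPKM, fragment numbers scaled for transcript length and depth, so levels can be compared between genes. Log2 fold changes are DTA-1 minus isotype on log2(FPKM + 1), each with its SE from a limma fit over 10501 genes, and a gene was called at an adjusted p under 0.05. This threshold was passed by 0.0381% of the genes (0.0286% higher and 0.00952% lower with DTA-1) and by none of the 5 locus genes. At an unadjusted p under 0.05, 14.0% of the genes passed (6.22% higher and 7.73% lower), among them Il13 and Il5.

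Il13 and Il5 were among the most abundant transcripts of these cells, while Il4 was expressed at a level near that of Kif3a. With the isotype, mean levels followed the order Il13 (2326 FPKM), Il5 (2169 FPKM), Rad50 (47.5 FPKM), Il4 (11.2 FPKM) and Kif3a (10.5 FPKM). In this order the ranges of Il13 and Il5 overlapped, as did those of Il4 and Kif3a, whereas Rad50 stood apart from both pairs. The order was the same with DTA-1, where Il13 lay above Il5 in each library. Il13 ranked between 20 and 47 among all genes with the isotype and between 3 and 6 with DTA-1. Il5 ranked between 30 and 69 with the isotype and between 12 and 39 with DTA-1. Together Il13 and Il5 made up 0.643%, 0.764% and 0.907% of the summed FPKM with the isotype (here and below, values follow replicates 1, 2 and 3). With DTA-1 they made up 1.35%, 1.58% and 1.4%, above every isotype library.

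**Figure D1:**
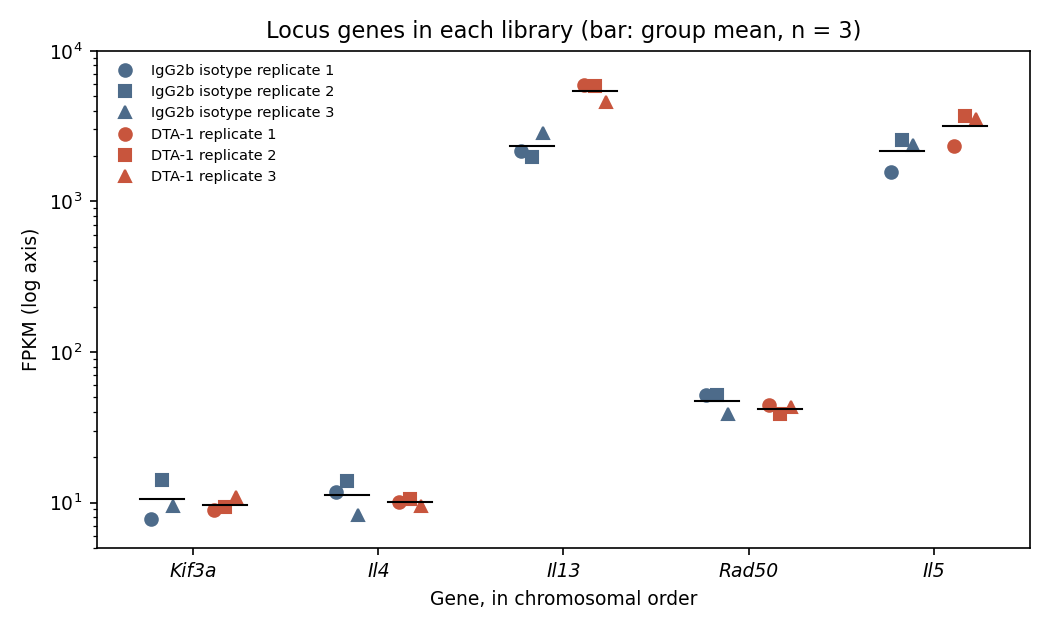
FPKM of the 5 locus genes (log axis) in each library, in chromosomal order, with marker shape for the replicate number and a bar for the group mean (n = 3). Il13 and Il5 lie between 1567 and 5883 FPKM and the other genes between 7.80 and 52.0 FPKM, and the groups are apart for Il13 alone.

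Il13 showed the clearest difference between the groups within the locus. The isotype libraries held 2160, 1980 and 2839 FPKM of Il13, and the DTA-1 libraries 5883, 5791 and 4593 FPKM. Every DTA-1 library lay above every isotype library, a separation toward DTA-1 that 11.2% of all tested genes also showed. The group means were 2326 ± 453 (SD, n = 3) and 5422 ± 720 FPKM (SD, n = 3), a ratio of 2.33. The log2 fold change was 1.23 ± 0.16, and the limma adjusted p of 0.0663 missed the threshold. By raw p, Il13 ranked 10 of the 10501 genes, and 32 genes had a larger log2 fold change. Leaving out any one library gave log2 fold changes from 1.12 to 1.38 with limma adjusted p-values from 0.0645 to 0.226. In bulk RNA, more cells making a transcript and more RNA per cell cannot be told apart.

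Il5 was also higher on average with DTA-1, but its groups overlapped. The isotype libraries held 1567, 2569 and 2371 FPKM of Il5, and the DTA-1 libraries 2324, 3683 and 3540 FPKM. DTA-1 replicate 1 lay below isotype replicates 2 and 3, while DTA-1 replicates 2 and 3 exceeded every isotype library. The means were 2169 ± 531 and 3183 ± 747 FPKM (SD, n = 3 each). The log2 fold change was 0.56 ± 0.23, with a 95% interval from 0.02 to 1.09 and a limma adjusted p of 0.341. Without isotype replicate 1, the library with the lowest Il5, the log2 fold change was 0.34. Without DTA-1 replicate 1 it was 0.77. When libraries were weighted by their estimated quality, Il13 (log2 fold change 1.08, limma adjusted p = 0.00803) and Il5 (0.67, limma adjusted p = 0.0408) both passed, but 475 genes did so in that fit.

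Il4 was detected at a low level that did not separate the groups. The isotype libraries held 11.7, 13.8 and 8.24 FPKM of Il4, and the DTA-1 libraries 10.1, 10.5 and 9.50 FPKM. All DTA-1 values fell inside the isotype range. The means were 11.2 ± 2.80 and 10.0 ± 0.508 FPKM, with a log2 fold change of -0.12 ± 0.18 and a 95% interval from -0.53 to 0.28 (limma adjusted p = 0.82). The sign turned to 0.03 without isotype replicate 2, the library with the highest Il4, and to 0.13 with library quality weights, so no direction is given. Il4 is a short transcript, and these values rest on an estimated 98 to 156 fragments per library, a counting error of up to 10.1%. For Il13 and Il5 the estimate was at least 44700 fragments in every library.

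The neighbours Rad50 and Kif3a showed no difference beyond the spread of the libraries. Rad50 stood at 51.7, 52.0 and 39.0 FPKM with the isotype and at 44.7, 38.4 and 43.1 FPKM with DTA-1. Its groups overlapped, and its log2 fold change was -0.16 ± 0.14 (95% interval -0.49 to 0.17, limma adjusted p = 0.688). Kif3a stood at 7.80, 14.2 and 9.54 FPKM with the isotype and at 8.85, 9.33 and 10.8 FPKM with DTA-1. The DTA-1 values again lay inside the isotype range, with a log2 fold change of -0.08 ± 0.20 (95% interval -0.53 to 0.38, limma adjusted p = 0.911). Isotype replicate 2 had the highest Kif3a as well as the highest Il4, and without it the log2 fold change of Kif3a was 0.14.

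The genes flanking the locus were examined in a window of 250 kb on either side. Of 12 further genes of that window in the tables, 6 were expressed highly enough to be tested, and none was called. Their log2 fold changes ran from -0.21 to 0.19 with a median of -0.03, against 0.01 over all tested genes. Irf1, which encodes an interferon regulatory factor and is the nearest of these genes beyond Il5, measured 32.04 ± 5.05 and 31.2 ± 6.16 FPKM with isotype and DTA-1 (n = 3 each). On the other side, the cytoskeletal septin gene Sept8 measured 69.0 ± 4.98 and 78.9 ± 2.61 FPKM, and Aff4, a gene of the super elongation complex, 46.4 ± 3.90 and 40.0 ± 3.74 FPKM. Sept8 and the carnitine transporter gene Slc22a5 (4.22 ± 0.716 and 4.91 ± 0.151 FPKM) lay higher without overlap, and Aff4 lay lower without overlap. Separation was found for 21.6% of all tested genes, 11.2% higher and 10.5% lower. Uqcrq, a gene of respiratory complex III, measured 348 ± 39.7 and 345 ± 11.3 FPKM, and Zcchc10 67.8 ± 11.3 and 65.6 ± 8.91 FPKM. The remaining 6 genes (Leap2, Gdf9, Shroom1, Sowaha, Gm12216 and Slc22a21) did not reach 1 FPKM in 3 libraries.

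**Figure D2:**
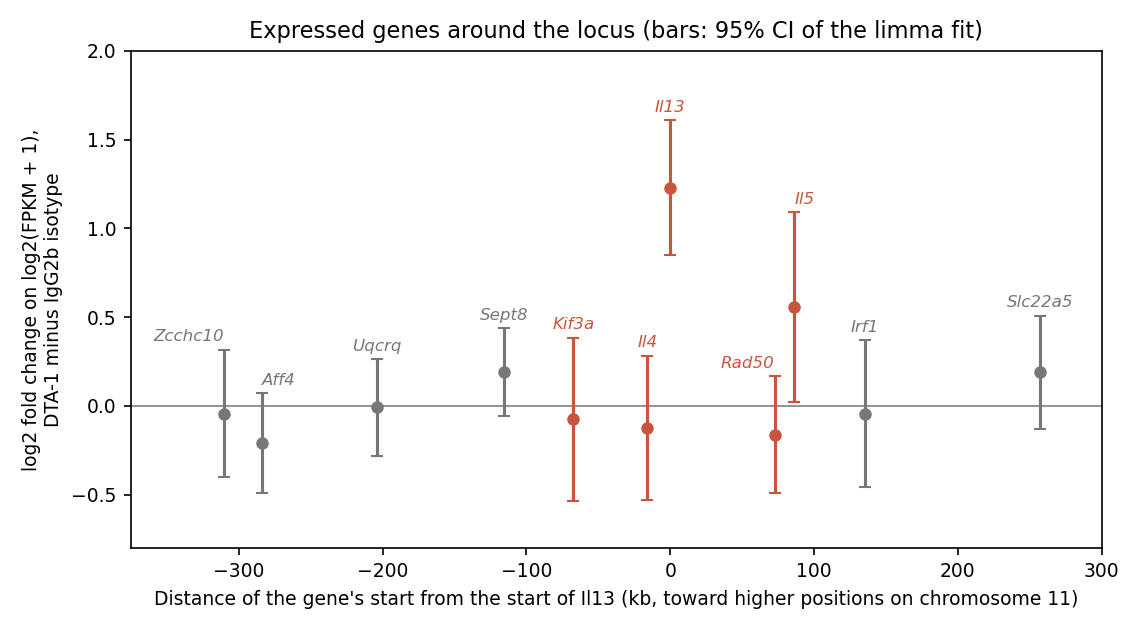
Log2 fold change (DTA-1 minus IgG2b isotype, on log2(FPKM + 1)) of the 11 tested genes in the window against the distance of each gene's start from the start of Il13 in kb, with 95% intervals of the limma fit. Il13, at 1.23, lies above its tested neighbours, with Il5 next at 0.56 and the other genes between -0.21 and 0.19.

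To ask whether the cytokine genes differed from each other and from their neighbours, the log2 ratio of each of the 10 pairs was taken within each library and compared between the groups by an exact two-sided permutation test. With 3 libraries against 3 this exact test cannot go below p = 0.10, so no pair could pass the threshold. Il13 to Rad50 had log2 ratios of 5.36, 5.23 and 6.15 with the isotype and 7.01, 7.20 and 6.70 with DTA-1, a difference of 1.39 ± 0.32 (SE, exact permutation p = 0.1, adjusted over 10 pairs 0.25). Il13 to Il4 (difference 1.35 ± 0.37), Il13 to Kif3a (1.30 ± 0.38) and Il5 to Kif3a (0.63 ± 0.21) were likewise higher in every DTA-1 library than in any isotype library, each at the same exact p. The other 6 pairs overlapped between the groups.

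Il13 to Il5 was the one pair with Il13 whose groups overlapped. The FPKM ratio of Il13 to Il5 was 1.38, 0.771 and 1.197 with the isotype and 2.53, 1.57 and 1.30 with DTA-1. DTA-1 replicate 3 thus lay below isotype replicate 1. The difference in the log2 ratio was 0.67 ± 0.38 (exact permutation p = 0.2, adjusted over 10 pairs 0.286), so a larger difference for Il13 than for Il5 was not shown with these libraries. Il5 against Il4 (0.68 ± 0.37) and Il5 against Rad50 (0.72 ± 0.40) gave the same exact permutation p of 0.2, and without isotype replicate 1 these differences were 0.42 and 0.44. For Il13 to Il5 the difference was 0.40 without DTA-1 replicate 1 and 0.43 without isotype replicate 2. The pairs among Il4, Rad50 and Kif3a differed by 0.04 ± 0.13, -0.05 ± 0.24 and -0.09 ± 0.26 (Il4 to Rad50, Il4 to Kif3a and Rad50 to Kif3a), with exact permutation p-values of 0.6, 0.9 and 0.9. Their signs turned when 1 of the libraries was left out.

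**Figure D3:**
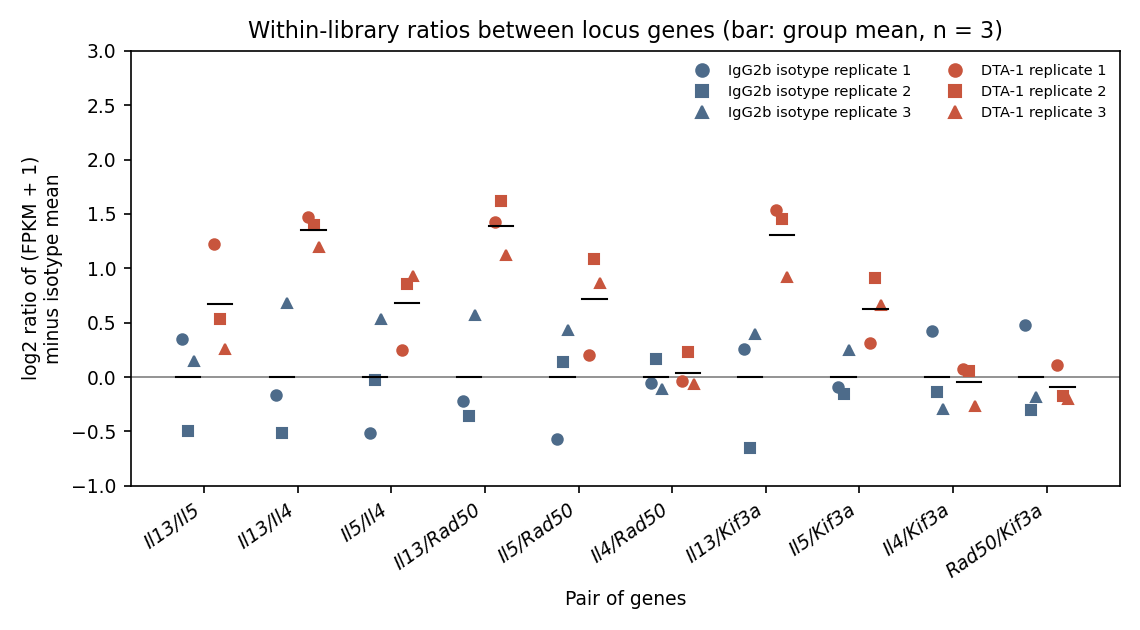
Log2 ratio of (FPKM + 1) for the 10 pairs of locus genes in each library, minus the isotype mean of the pair, with a bar for the group mean (n = 3). The pairs Il13/Il4, Il13/Rad50, Il13/Kif3a and Il5/Kif3a have all DTA-1 libraries above all isotype libraries, and the pairs among Il4, Rad50 and Kif3a centre near 0.

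Transcription factors that act on the locus were followed with a list of 29 lineage and activation factors, of which 28 were tested. None was called and the median log2 fold change was 0.12. Without overlap, 4 lay higher and 4 lower, against 11.2% and 10.5% of all tested genes. Gata3, which type 2 lymphocytes need to form and to make these cytokines, had levels of 118, 212 and 167 FPKM with the isotype and 193, 179 and 166 FPKM with DTA-1. Its groups overlapped (log2 fold change 0.15 ± 0.20). Stat6, the transducer of IL-4 and IL-13 signals, measured 30.3 ± 2.72 and 41.7 ± 10.98 FPKM without overlap, with the highest value, 54.2 FPKM, in DTA-1 replicate 1. The separated factors with the smallest p were Ets1, a lymphoid transcription factor (87.5 ± 14.2 and 49.7 ± 4.93 FPKM), Stat5a, which transduces IL-2 and IL-7 signals (43.6 ± 4.73 and 75.0 ± 12.97 FPKM), Irf4 (175 ± 19.7 and 238 ± 13.2 FPKM) and the AP-1 partner Batf (246 ± 35.9 and 179.7 ± 8.27 FPKM). Their limma adjusted p-values ran from 0.0923 for Ets1 to 0.186 for Batf.

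Among 11 repressors of type 2 cytokine genes, 8 were tested, none was called, and the median was 0.05. The groups were apart for 2 higher and 1 lower, against 21.6% of all tested genes in either direction. Zbtb32, a repressor of GATA3 activity, measured 29.8 ± 3.10 and 41.7 ± 9.73 FPKM. Stat4 measured 4.76 ± 0.723 and 7.33 ± 3.02 FPKM, and Runx1 14.4 ± 1.55 and 12.6 ± 0.361 FPKM. Sox4 reached 5.51 FPKM in DTA-1 replicate 1 and at most 1.39 FPKM elsewhere. The type 1 regulator genes Tbx21 and Eomes stayed under 0.3 FPKM in all libraries.

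The genes of 16 chromatin and looping proteins were all tested, and none was called. Their median log2 fold change was -0.19, and 1 was higher and 5 were lower without overlap, against 11.2% and 10.5% of all tested genes. Satb1, which organises chromatin loops at this locus in T helper 2 cells, measured 11.9, 11.9 and 10.8 FPKM with the isotype and 2.04, 6.72 and 7.52 FPKM with DTA-1. Its log2 fold change was -1.10 ± 0.35 (limma adjusted p = 0.216). The histone methyltransferase gene Ezh2 measured 93.0 ± 24.5 and 57.6 ± 7.36 FPKM, the DNA methyltransferase gene Dnmt1 78.5 ± 16.0 and 53.5 ± 2.27 FPKM, and the cohesin gene Smc1a 72.5 ± 14.7 and 48.6 ± 5.90 FPKM. In the same libraries, all 12 genes of a proliferation list were tested and none was called, while 11 were lower without overlap, against 10.5% of all tested genes. Their summed level was 832 to 1330 FPKM with the isotype and 560 to 612 FPKM with DTA-1. Ccna2, a cyclin of S and G2 phase, was highest in isotype replicate 1, at 70.5 FPKM, the library with the lowest Il5. The part of proliferation in any of these differences was not tested.

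**Figure D4:**
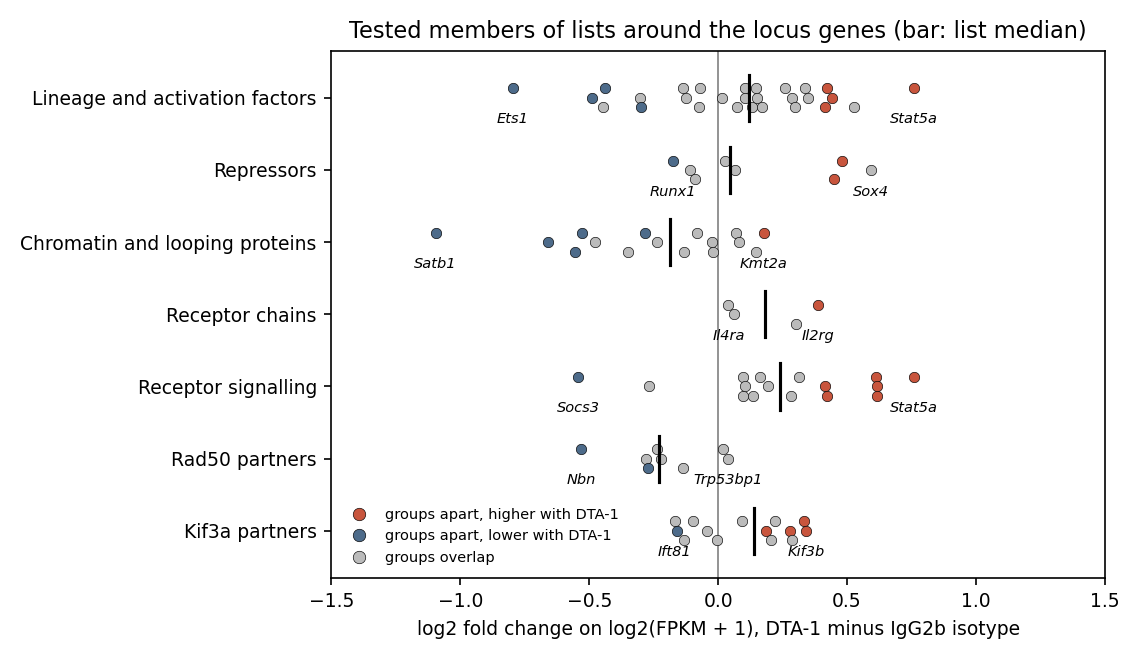
Log2 fold changes (DTA-1 minus IgG2b isotype, on log2(FPKM + 1)) of the tested members of 7 gene lists around the locus genes, coloured by whether the 3 DTA-1 and the 3 isotype values are apart, with a bar for the list median. Medians lie between -0.23 for the Rad50 partners and 0.24 for receptor signalling, and the lowest gene is Satb1 at -1.10.

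Receptor chains for the locus products were expressed in part. Il4ra, the chain shared by the IL-4 and IL-13 receptors, measured 70.8 ± 13.6 and 72.5 ± 10.5 FPKM with isotype and DTA-1. Il2rg, which pairs with it for IL-4, stood at 313, 356 and 380 FPKM with the isotype and at 469.5, 467 and 433 FPKM with DTA-1, without overlap (log2 fold change 0.39 ± 0.11, limma adjusted p = 0.188). Il13ra1 and Il13ra2, the chains that bind IL-13, were listed at 0 in all 6 libraries, and the IL-5 receptor gene Il5ra stayed at or under 0.0145 FPKM. Csf2rb, the signalling chain that pairs with the IL-5 receptor, measured 9.51 ± 5.63 and 11.3 ± 5.52 FPKM, and its paralog Csf2rb2 2.05 ± 0.890 and 2.11 ± 0.486 FPKM. Reads shared by these near-identical paralogs may be split between them. Of the 7 chains, 4 were tested and none was called.

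Of the signalling genes behind these receptors, 16 were tested and none was called. Their median log2 fold change was 0.24, with 6 higher and 1 lower without overlap, against 11.2% and 10.5% of all tested genes. The kinase genes Tyk2 (21.6 ± 3.22 and 33.4 ± 3.77 FPKM) and Jak2 (62.4 ± 16.2 and 94.6 ± 13.4 FPKM) were higher with DTA-1 in each library. Socs3, a feedback inhibitor, measured 36.8 ± 8.58 and 24.7 ± 3.29 FPKM and was lower without overlap. The limma adjusted p was 0.14 for Tyk2, 0.214 for Jak2 and 0.226 for Socs3.

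The partners of Rad50 and of Kif3a were examined as a reference for those neighbours. Rad50 works with MRE11 and NBN in the complex that senses DNA breaks. Nbn stood at 10.4, 12.1 and 7.67 FPKM with the isotype and at 7.02, 6.69 and 5.95 FPKM with DTA-1, and Mre11a measured 20.5 ± 3.42 and 16.7 ± 0.907 FPKM. Both were lower without overlap, while the groups of Rad50 overlapped. Whether Rad50 differed from its partners was not tested. The 8 tested partners had a median of -0.23 and no calls, and these were the 2 lower without overlap, against 10.5% of all tested genes. Of 14 tested partners of Kif3a, 4 lay higher and 1 lower without overlap (11.2% and 10.5% of all tested genes), with a median of 0.14 and no calls. Kif3b, the other motor subunit of kinesin-2, measured 25.3 ± 3.80 and 32.2 ± 1.73 FPKM without overlap, Kif3c 1.31 ± 0.215 and 1.80 ± 0.0671 FPKM, and the adaptor gene Kifap3 5.04 ± 1.21 and 5.96 ± 0.442 FPKM.

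Each locus gene was also compared with 8132 other genes of at least 5 FPKM for the likeness of its profile over the 6 libraries, by Pearson's r on log2(FPKM + 1). High values were common over these 6 libraries, and the reason was not tested. An r of 0.9 was exceeded by 313 genes with Il13, 125 with Il5, 33 with Il4, 177 with Rad50 and 563 with Kif3a. The count was thus highest for Kif3a, whose log2 fold change between the groups was -0.08. The closest to Il13 were Ptpn13, Phb and S1pr2, each at 0.996. S1pr2, a sphingosine-1-phosphate receptor gene, stood at 9.39, 8.34 and 10.5 FPKM with the isotype and at 16.5, 16.6 and 13.7 FPKM with DTA-1. The closest to Il5 were Pramef8 (0.996), the kinase gene Map2k4 (0.990) and Ppap2a (0.988). Ppap2a, a lipid phosphatase gene, had its low values in isotype replicate 1, at 4.04 FPKM, and its high values in DTA-1 replicates 2 and 3, at 12.9 and 11.9 FPKM. For Il4 they were Utp14a (0.965), 3110009E18Rik (0.964) and the DNA polymerase gene Rev3l (0.963), for Rad50 Chd8 (0.995), Clip1 (0.994) and Ahcyl1 (0.994), and for Kif3a Atp6v1g1 (0.999), Rbm3 (0.996) and Hypk (0.996). Ranking by r ignores the size of a difference: the log2 fold change of Ptpn13 was 0.16 against 1.23 for Il13.

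The labelled cell type was checked against markers. Il1rl1, the IL-33 receptor gene, measured 253 ± 53.2 and 182 ± 9.05 FPKM, and Arg1, an enzyme gene of lung ILC2, 95.2 ± 11.8 and 69.3 ± 8.51 FPKM. Klrg1, an inhibitory receptor gene of mature ILC2, stood at 97.0, 114.9 and 79.8 FPKM with the isotype and at 10.5, 43.6 and 48.1 FPKM with DTA-1. Its log2 fold change was -1.73 ± 0.49 (limma adjusted p = 0.178). Of 15 ILC2 identity genes 14 were tested and none was called. These 3 genes lay lower without overlap, against 10.5% of all tested genes, and the median of the list was -0.22. Il2ra, the most abundant of the list, measured 1425 ± 251 and 1216 ± 122 FPKM, with overlap. Gata3, Rora, Thy1, Bcl11b and Hlf went the other way, with log2 fold changes from 0.12 (Thy1) to 0.20 (Hlf), and their groups overlapped. Ptgdr2, another ILC2 receptor gene, stayed at or under 0.12 FPKM. Markers of other cells were summed per library. The 9 markers of mast cells and basophils summed to 0.0683 to 0.53 FPKM with the isotype and 0.0558 to 0.383 FPKM with DTA-1, with Mcpt4 and Prss34 listed at 0 throughout and Mcpt8, a basophil protease gene, at 0 in 5 libraries. Cma1, a mast cell chymase gene, had means of 0.0363 FPKM with the isotype and 0.156 FPKM with DTA-1. The 8 eosinophil markers summed to 1.84 to 1.9 and 0.215 to 0.941 FPKM, most of it Ccr3, with Prg2, Siglecf, Ear1, Ear2 and Ear6 listed at 0. The 8 T cell markers in the tables summed to 30.6 to 41.3 and 31.3 to 34.0 FPKM, led by Lat and by Cd3g, a T cell receptor complex gene at 7.07 to 10.2 FPKM, while Cd3e stayed under 0.94 FPKM and Cd4 under 0.062 FPKM. The sums with isotype and DTA-1 were 3.36 to 7.23 and 2.93 to 6.46 FPKM for B cells (led by Cd79b), 3.46 to 5.18 and 0.357 to 2.59 FPKM for NK cells and ILC1 (Gzmb) and 8.37 to 17.5 and 8.38 to 12.9 FPKM for ILC3 (Kit). They were 3.01 to 4.4 and 3.12 to 4.5 FPKM for macrophages and dendritic cells (Cd68) and 0.433 to 0.739 and 0.393 to 0.514 FPKM for neutrophils (Cxcr2). Epithelium gave 3.89 to 4.65 and 1.54 to 2.22 FPKM (Epcam), and endothelium and fibroblasts 31.8 to 44.2 and 20 to 38.9 FPKM (Pecam1). The eosinophil, NK cell and epithelial sums were thus lower in every DTA-1 library. Each of these sums came mostly from its leading gene (Ccr3, Gzmb or Epcam), with the other markers of the list low or at 0. Whether the number of such cells differed between the groups was not tested. The part of any other cells in the values of the locus genes was not tested.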

How the data were processed

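The authors deposited 1 table per library with a gene symbol and a value that no label or header names, taken here as FPKM because low values move in steps that scale with inverse transcript length. The submitters' processing notes name TopHat and mm10. The counting program, with its annotation and version, is not given in the sources used here. Groups and replicate numbers came from the titles; the treatment tags of replicates 2 and 3 number the antibodies (IgG3b, IgG4b, DTA-2, DTA-3) and were not used. Depth was estimated from the steps, so counting errors are estimates.

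The 10501 genes that reached 1 FPKM in 3 or more libraries were compared on log2(FPKM + 1), which understates changes of low genes, with limma 3.58.1 in R 4.3.3 (moderation with trend and robust, no covariate, two-sided, Benjamini-Hochberg adjustment). Ratios were tested with scipy 1.17.1 and figures drawn with matplotlib 3.10.9. On simulated data for this comparison with 10501 genes, 200 of them changed, 35.6% of 1.5-fold, 90% of 2-fold and 99.7% of 4-fold changes were recovered, and 5.89% of calls were false. In the fit to the libraries, 4 genes were called, while Il9 (log2 fold change 3.46), Csf2 (2.73) and Il13 (1.23) missed the threshold. Their limma adjusted p-values were 0.0648, 0.0641 and 0.0663. Whether such recovery holds for these libraries was not tested. Coordinates came from GENCODE M21, promoters from RefSeq. Rad50 had no entry among the promoters.

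The members and lists were chosen with earlier results of these data known. Genes named are the members, their 3 closest profiles, up to 4 genes per list with the smallest p, a fixed set (Gata3, Csf2, Il3, Irf1, Il9, Stat6, Il4ra, Il5ra, Mre11a, Nbn, Kif3b, Kifap3), the genes of the 250 kb window and the leading gene of each marker list. Genes listed at or near 0 and further markers were named after their values were seen. Alternatives covered the pseudocount, filter, scaling, moderation, library weights, a replicate block and leaving out libraries.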

Additional observations from a re-analysis of the deposited data

How the results depend on the processing

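Of 192 recomputed values, 174 kept their direction and their side of the threshold (or, for a count, stayed within 1.5 times). The pair ratios among them were judged by direction alone, because their exact test cannot pass the threshold. Il13 passed with library quality weights (log2 fold change 1.08) and with a replicate block (1.23, limma adjusted p = 0.0338), and Il5 passed with the weights (0.67). The sign of Il4 turned with the weights (0.13). The count of called genes was 4, against 2 without a filter, 7 after quantile normalization, 475 with weights and 185 with the block; the cause was not tested. The labels do not say whether equal replicate numbers share an animal or a day. Same-numbered libraries deviated together with r = 0.39, -0.10 and -0.13 for numbers 1, 2 and 3, and only number 1 correlated best with its own number. With 3 libraries per group these values cannot settle whether the numbers pair the samples. With the block, the log2 fold change of Il5 was 0.56 ± 0.14 (limma adjusted p = 0.08), against an SE of 0.23 without it.

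With libraries left out in turn, log2 fold changes ran from -0.31 to 0.03 for Il4, from -0.25 to 0.14 for Kif3a, from 0.34 to 0.77 for Il5 and from -0.30 to -0.09 for Rad50. Differences in log2 ratio ran from -0.05 to 0.12 (Il4 to Rad50), -0.19 to 0.16 (Il4 to Kif3a), -0.24 to 0.15 (Rad50 to Kif3a) and 0.40 to 0.88 (Il13 to Il5, lowest without DTA-1 replicate 1). The count of called genes ran from 2 to 4 and was 2 without isotype replicate 3 and without either of DTA-1 replicates 2 and 3. Scaling between libraries moved the median of all genes by at most 0.03. Depth limits Il4 most, with an estimated 98 fragments in its lowest library.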

Other observations

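Beyond the window around the locus, the same stretch of chromosome 11 holds Csf2 and P4ha2, and both lay higher with DTA-1 without overlap. Csf2, the gene of the growth factor GM-CSF, stood at 53.6, 67.2 and 78.5 FPKM with the isotype and at 810, 338 and 313 FPKM with DTA-1, a difference of 2.73 ± 0.34 on the log2 scale (limma adjusted p = 0.0641). P4ha2, a prolyl hydroxylase gene of collagen synthesis, stood at 5.96, 6.66 and 5.97 FPKM with the isotype and at 21.2, 13.4 and 11.8 FPKM with DTA-1, a difference of 1.16 ± 0.20 on the log2 scale (limma adjusted p = 0.0817). Il3, next to Csf2, stayed under 0.54 FPKM and was not tested. The wider list of 22 neighbours in the tables includes genes of that window. Of its members 12 were tested, and the median log2 fold change was -0.02. Without overlap, Csf2, P4ha2 and the window genes Sept8 and Slc22a5 lay higher and the window gene Aff4 lower, against 11.2% and 10.5% of all tested genes.

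The order of the DTA-1 libraries differed between cytokines. Il9 stood at 222, 483 and 529 FPKM with the isotype and at 8425, 3151 and 2868 FPKM with DTA-1, so that DTA-1 replicate 1 led both Il9 and Csf2. Of 15 other effector cytokines, 11 were tested and none was called, and the median log2 fold change was 0.64. Without overlap, 7 lay higher and 1 lower, against 11.2% and 10.5% of all tested genes. The 1 lower was Lif, at 94.5, 54.3 and 55.7 FPKM with the isotype and 24.3, 27.5 and 25.8 FPKM with DTA-1. Its log2 fold change was -1.32 ± 0.21 (limma adjusted p = 0.0817). Tnf, among the 7 higher, measured 28.5 ± 2.44 and 57.7 ± 14.5 FPKM (limma adjusted p = 0.0888). In DTA-1 replicate 1, Il13, at 5883 FPKM, was close to its level in DTA-1 replicate 2, and Il5, at 2324 FPKM, was the lowest of the group. Across the 6 libraries Il13 and Il5 had a Pearson's r of 0.61, which became -0.12 after the group means were removed. Il4 and Rad50 had an r of 0.80, and 0.79 after that removal, the highest of the 10 pairs. Other pairs reached values of like size in either direction after the removal. They were 0.72 for Il5 and Kif3a, -0.77 for Il13 and Rad50, and -0.69 for Il4 and Il13. These are descriptions of 6 libraries that share their groups.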
